A study of Mus musculus with 12 samples.

Results

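The 9 genes described here write, copy and remove DNA methylation: Dnmt1, Uhrf1, Dnmt3a, Dnmt3b, Tet1, Tet2, Tet3, Tdg and Mbd4. They were chosen by name from the 34245 genes of the count table, with earlier results of these data known. All 9 were measured and passed the minimum count in every comparison. Cytosine methylation at CpG sites is laid down by the de novo methyltransferases Dnmt3a and Dnmt3b. It is copied to the new strand behind the replication fork by Dnmt1, which Uhrf1 brings to hemimethylated DNA. Tet1, Tet2 and Tet3 oxidise methylated cytosine, and the glycosylase Tdg cuts out the further oxidised bases so that base excision repair can restore cytosine, while Mbd4 removes thymine left by deamination of methylated cytosine. In the intestinal crypt, stem cells divide continuously, and their progeny stop dividing as they move onto the villus.

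RNA was sequenced from sorted small intestinal cells of male C57BL/6 Lgr5-EGFP-IRES-creERT2 mice, in which GFP and a tamoxifen-inducible Cre are expressed from the Lgr5 locus. Intestinal stem cells (ISC) were GFP-high, DAPI-negative crypt cells, and adult enterocytes (AE) were Epcam-high villus cells negative for CD31, CD45 and DAPI. Each cell population came from young animals, which were middle-aged by the study's methods, and from aged ones, with 3 libraries in each of the 4 groups (young ISC, aged ISC, young AE and aged AE). All groups carried the same knock-in, and no other genotype or treatment was compared. The library code that opens a sample title conflicts with the words after it in 8 of 12 cases, so each library was placed by the group its own column name spells. The study's methods give 3 animals for each age cohort, while the labels do not say which animal each library came from.

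Library totals lay between 11893817 and 26796461 counts, except young AE replicate 3 with 110794420. The sorted populations carried the markers of their labels. The summed level of 13 crypt base stem cell genes was 6217 to 8755 CPM (counts scaled to library size by the TMM method) in the 6 ISC libraries and 147 to 709 in the 6 AE libraries. For 18 proliferation genes it was 2245 to 2848 CPM in ISC and 133 to 664 in AE. The sum of 20 enterocyte genes was 2456 to 11682 CPM in ISC and 81589 to 130838 in AE. In AE 7 goblet cell genes also summed to between 28069 and 56977 CPM, against 1389 to 2240 in ISC. For 8 enteroendocrine genes the sum was 2805 to 6988 CPM in AE and 238 to 724 in ISC. For 7 Paneth cell genes it was 551 to 1641 CPM in ISC and 52.1 to 227 in AE. Young AE replicate 2 stood apart within AE, at 709 CPM for stem cell genes and 664 CPM for proliferation genes, while the other 5 AE libraries reached at most 266 and 223. The sum of 10 T cell genes was 9.31 to 22.6 CPM in young ISC, 3.07 to 4.97 in aged ISC and 18.2 to 57.7 in AE.

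Between AE and ISC, Dnmt1, Uhrf1, Dnmt3b, Tet1 and Mbd4 were lower in AE at both ages and Tet2 was higher at both ages. Tdg was lower in the aged comparison, and Dnmt3a and Tet3 were called at neither age. Thus 5 members were lower and 1 higher in young mice, and 6 were lower and 1 higher in aged mice. Most genes differed between these cell populations: 55.6% of the 16681 genes tested in young mice were called (26.7% lower and 28.9% higher), and 64.9% of the 15855 tested in aged mice (34.2% lower and 30.6% higher). Calls are at an adjusted p under 0.05 (edgeR, quasi-likelihood F test, Benjamini and Hochberg's method across all tested genes). The median log2 fold change of the members was -2.05 in young and -2.58 in aged mice, beside 0.15 and -0.13 for all genes tested. In bulk RNA, fewer cells that express a gene and less of its RNA per cell cannot be told apart.

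**Figure D1:**
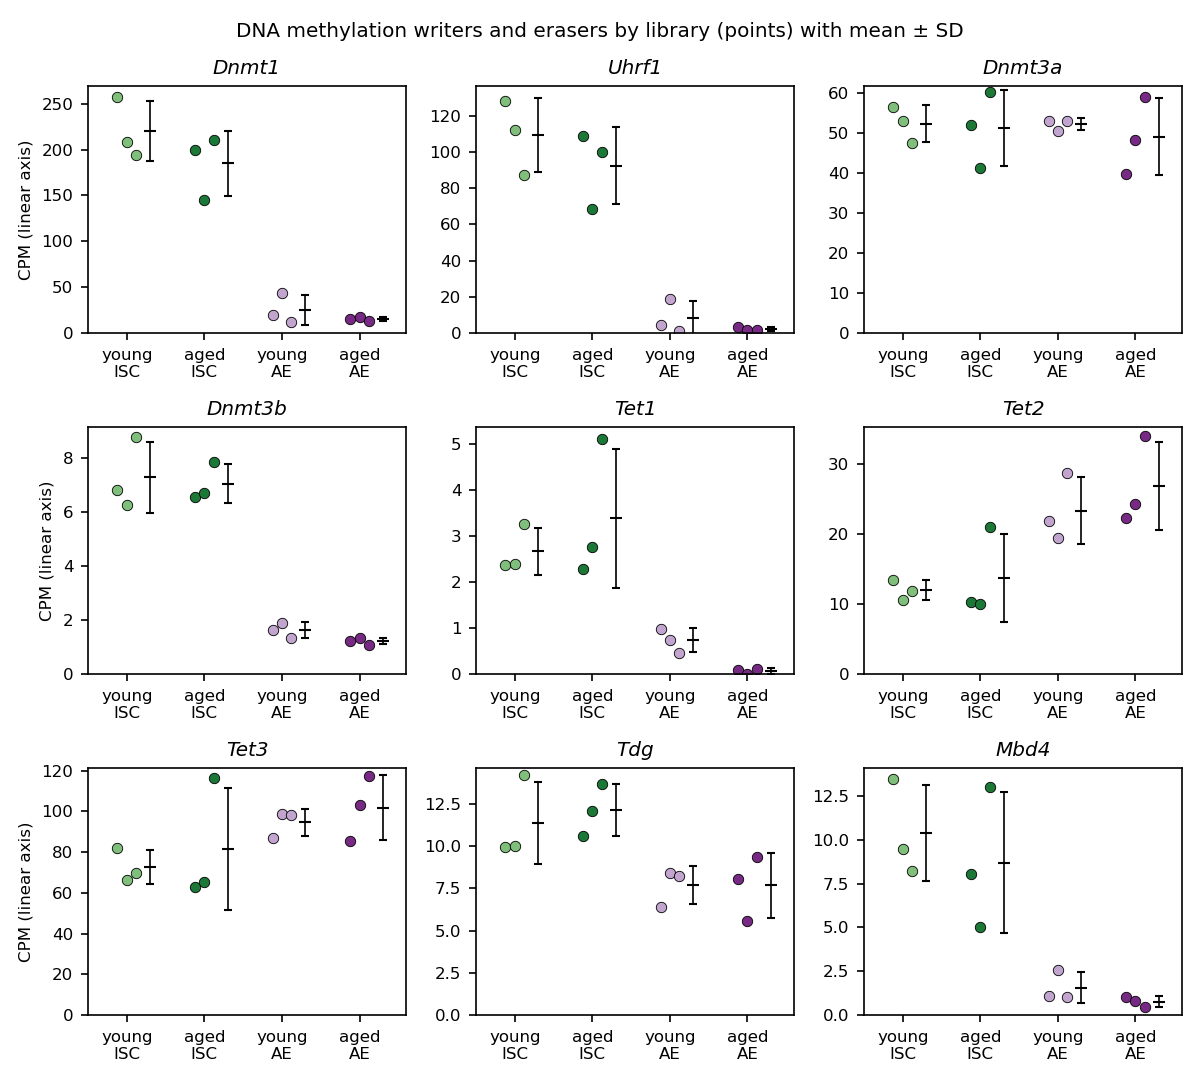
CPM of the 9 members (linear axes from 0) in each of the 12 libraries, as points by group, with the mean and SD of 3 libraries beside them; the SD of Uhrf1 in young AE, 9.36 CPM, exceeds its mean of 8.21. Dnmt1, Uhrf1, Dnmt3b, Tet1 and Mbd4 sit far lower in both AE groups than in both ISC groups, Dnmt3a lies between 39.8 and 60.1 CPM in all 12 libraries, and Tet2 is higher in AE.

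The maintenance pair fell most in absolute level. Dnmt1 (chr9:20907209-20959888, minus strand, GRCm38) was at 257, 208 and 194 CPM in young ISC libraries, and their aged counterparts were at 200, 144 and 211. In AE it was at 19.8, 44.0 and 12.5 CPM in young and 15.3, 17.6 and 13.3 in aged libraries. The highest AE library, young AE replicate 2 at 44.0 CPM, lay below the lowest ISC library at 144. Relative to ISC, the level in young AE was 8.72-fold lower (log2 fold change -3.12 ± 0.46, SE), with an adjusted p of 0.00132. In aged mice the change was -3.65 ± 0.21, or 12.6-fold lower (adjusted p = 3.07e-07). Without young AE replicate 2 the young value was -3.88.

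Uhrf1 (chr17:56303321-56323486, plus strand), which reads hemimethylated CpG through its SRA domain, had 128, 112 and 87.4 CPM in young ISC and, in aged ISC, 109, 68.5 and 100. In young AE it was at 4.50, 18.9 and 1.27 CPM, and in aged AE at 3.24, 1.79 and 1.53. Every AE library was again below every ISC library, and the young AE libraries spread widely, from 1.27 to 18.9 CPM. The log2 fold change was -3.80 ± 0.94 in young mice (13.9-fold lower, adjusted p = 0.0148) and -5.46 ± 0.30 in aged mice (44.1-fold lower, adjusted p = 2.57e-07). Without young AE replicate 2 it was -5.50 in young mice (adjusted p = 5.71e-04).

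In the young AE libraries these levels moved with the markers of dividing crypt cells. As a share of the ISC mean of the same age, Dnmt1 had a median of 9.01% in young AE and a lowest value of 5.68%, and the proliferation gene sum was at 4.93, 8.28 and 24.6% in rising order. Uhrf1 was at 1.16, 4.12 and 17.3%, and the stem cell gene sum ran from 1.99 to 9.59%. The highest value of each was that of young AE replicate 2. In aged AE, where the proliferation sum stayed between 6.42 and 6.51%, Dnmt1 was at 7.19 to 9.49% and Uhrf1 at 1.65 to 3.50%. The stem cell gene sum in aged AE replicates 1, 2 and 3 was 167, 253 and 230 CPM. Dnmt1 there was at 15.3, 17.6 and 13.3 CPM and Uhrf1 at 3.24, 1.79 and 1.53 (34, 20 and 14 counts). Neither gene had the order of that sum over these 3 libraries. The part of residual dividing cells in the AE values was not tested.

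**Figure D2:**
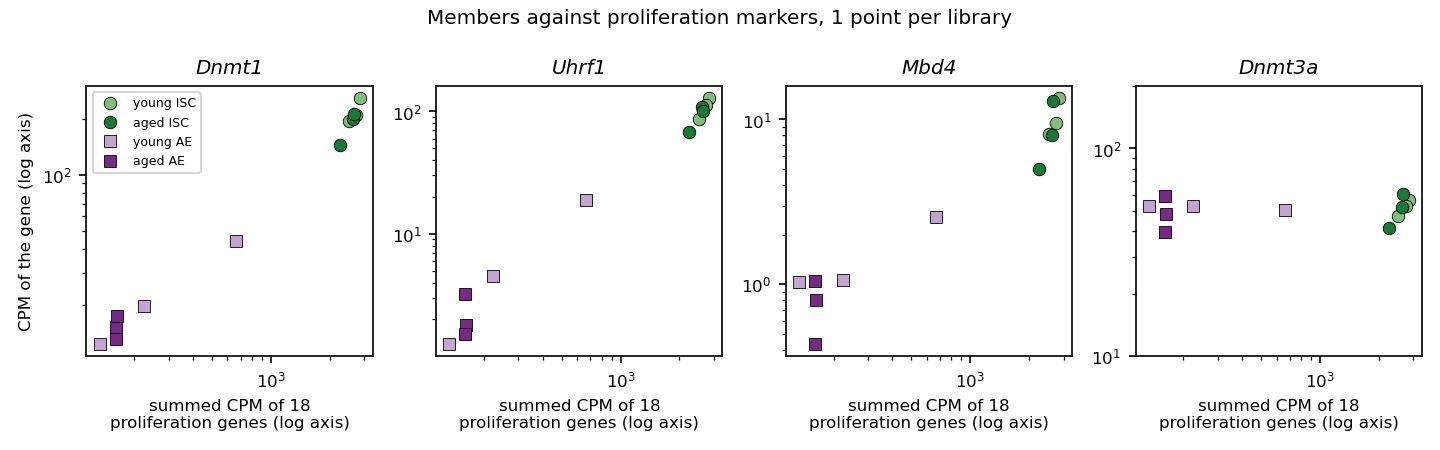
CPM of Dnmt1, Uhrf1, Mbd4 and Dnmt3a (vertical log axes) against the summed CPM of 18 proliferation genes (horizontal log axis), with 1 point per library, circles for ISC and squares for AE. Young AE replicate 2, at 664 CPM of proliferation genes, has the highest Dnmt1 (44.0), Uhrf1 (18.9) and Mbd4 (2.56) of the 6 AE libraries, whereas Dnmt3a there (50.3) lies within the range of the others.

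The sequence before the start sites of Dnmt1, Uhrf1 and Mbd4 is shown because all 3 were lower in AE at both ages and because their windows held the letters searched for. Dnmt3b and Tet1, which were also lower at both ages, held none of these letters. E2F factors are known to drive genes of DNA replication. RefSeq windows (GRCm38.p6) were found for all 9 members, 14 in total. The 250 bases before each start were searched on both strands for the E2F core letters TTTCCCGC, TTTCGCGC, TTTGCCGC and TTTGGCGC and for CCAAT, letters that were chosen after the windows had been read. The E2F letters were in 2 of the 14 member windows, 1 of Dnmt1 and 1 of Uhrf1, and CCAAT was in 7 (of Dnmt1, Uhrf1, Tet3, Tdg and Mbd4). Of all 32851 windows, 1.86% held the E2F letters and 33.8% CCAAT. Because the letters were picked from these sequences, the counts cannot test for an excess among the members. The stretches below are written 5′ to 3′ on the gene's own strand with these letters in capitals. That of Uhrf1 (chr17:56304063-56304312, plus strand) ends at the base before a start site and that of Mbd4 (chr6:115853372-115853469, minus strand) lies between the first exons of Mbd4 and of its divergent neighbour Ift122. For Dnmt1 (chr9:20952831-20952860, minus strand) 30 bases around the E2F letters are given, which lie 219 bases before the start at 20952623 and inside the first exon of a longer Dnmt1 transcript.
Uhrf1: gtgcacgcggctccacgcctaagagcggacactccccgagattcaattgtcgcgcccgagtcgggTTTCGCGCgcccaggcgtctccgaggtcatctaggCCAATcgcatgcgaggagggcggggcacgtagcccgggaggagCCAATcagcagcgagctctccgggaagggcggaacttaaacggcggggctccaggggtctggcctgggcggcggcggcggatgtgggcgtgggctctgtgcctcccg
Dnmt1: cCCAATTGGtttccgcgcGCGCGAAAaagc
Mbd4: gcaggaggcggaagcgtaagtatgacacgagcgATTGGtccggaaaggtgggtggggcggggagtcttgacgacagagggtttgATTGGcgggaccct
Dnmt1 and Uhrf1 hold the same letters, TTTCGCGC, Uhrf1 on the strand shown and Dnmt1 on the other one. In the Dnmt1 stretch CCAAT and its reverse complement ATTGG overlap, and in Mbd4 both CCAAT matches are on the other strand, 95 and 44 bases before the start. A match is a description of these letters and not a measured binding site.

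The de novo enzymes differed from each other. Dnmt3a (chr12:3806007-3914443, plus strand) was at 56.5, 52.9 and 47.4 CPM in young ISC, 52.0, 41.3 and 60.1 in aged ISC, 53.0, 50.3 and 52.9 in young AE, and 39.8, 48.1 and 58.9 in aged AE. The 4 groups overlapped throughout. Set against ISC, AE differed by a log2 fold change of -0.01 ± 0.14 in young mice (95% interval -0.33 to 0.32, adjusted p = 0.974) and -0.14 ± 0.19 in aged mice (-0.56 to 0.29, adjusted p = 0.549).

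Dnmt3b (chr2:153649450-153687730, plus strand) was at 6.82, 6.25 and 8.76 CPM in young ISC and at 6.57, 6.69 and 7.86 in aged ISC. In AE it was at 1.64, 1.90 and 1.34 CPM in young and 1.24, 1.34 and 1.09 in aged libraries, with no overlap between the cell populations. It was 4.63-fold lower in young AE (log2 fold change -2.21 ± 0.31, adjusted p = 6.21e-04) and 5.98-fold lower in aged AE (-2.58 ± 0.29, adjusted p = 2.44e-05). Dnmt3c, a close copy of Dnmt3b, had 0 counts in all 12 libraries.

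The 3 dioxygenases went separate ways. Tet1 (chr10:62804570-62908996, minus strand), which binds CpG-rich DNA through a CXXC domain, was at 2.36, 2.38 and 3.26 CPM in young ISC and at 2.27, 2.75 and 5.11 in aged ISC. It was at 0.982, 0.745 and 0.466 CPM in young AE (12, 9 and 39 counts), and the aged AE libraries held 1, 0 and 1 counts. All AE libraries were below all ISC libraries. The log2 fold change was -2.05 ± 0.43 in young mice (4.15-fold lower, adjusted p = 0.00398) and -5.61 in aged mice (adjusted p = 3.11e-05). With 2 counts in aged AE and 247 in aged ISC, the pooled ratio was 49.7-fold, with an exact 95% interval of 13.6 to 412 that covers counting error only.

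Tet2 (chr3:133463679-133545139, minus strand), which lacks a CXXC domain of its own, was at 13.4, 10.6 and 11.9 CPM in young ISC and at 10.3, 9.98 and 21.0 in aged ISC. In young AE it was at 21.9, 19.4 and 28.7 CPM and in aged AE at 22.3, 24.3 and 34.0. The groups did not overlap at either age, although aged ISC replicate 3, at 21.0 CPM, came close to the lowest aged AE library. Tet2 was 1.96-fold higher in young AE (log2 fold change 0.97 ± 0.21, adjusted p = 0.00529) and 1.85-fold higher in aged AE (0.89 ± 0.30, adjusted p = 0.0222). The aged call was lost without aged ISC replicate 1 (0.72, adjusted p = 0.0771), without aged ISC replicate 2 (0.72, adjusted p = 0.0769) and without aged AE replicate 3 (0.70, adjusted p = 0.0877). Without aged ISC replicate 3 the difference was 1.32 (adjusted p = 7.01e-04).

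Tet3 (chr6:83362373-83459084, minus strand) had the highest counts of the 3. It was at 82.0, 66.5 and 69.8 CPM in young ISC, 62.9, 65.5 and 116 in aged ISC, 87.2, 98.9 and 98.1 in young AE, and 85.3, 103 and 117 in aged AE. The young groups did not overlap but the difference was not called (log2 fold change 0.38 ± 0.15, 95% interval 0.04 to 0.72, adjusted p = 0.0578), and without young ISC replicate 1 it was called (0.47, adjusted p = 0.0376). The aged groups overlapped because aged ISC replicate 3 stood at 116 CPM, and the difference of 0.25 ± 0.24 was not called (adjusted p = 0.382). Without that library it was 0.58 and was called (adjusted p = 0.0137).

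Of the base excision enzymes, Tdg (chr10:82629828-82650799, plus strand) was at 9.94, 9.99 and 14.2 CPM in young ISC, 10.6, 12.1 and 13.7 in aged ISC, 6.38, 8.44 and 8.24 in young AE, and 8.09, 5.56 and 9.38 in aged AE. No AE library reached the ISC range at either age. The difference was -0.56 ± 0.25 on the log2 scale in young mice, where it was not called (adjusted p = 0.0845), and -0.74 ± 0.23 in aged mice, where it was (1.67-fold lower, adjusted p = 0.0173). Without aged AE replicate 2 the aged difference was -0.56 and was no longer called (adjusted p = 0.0774). Whether the young and aged differences differed was tested as the difference of age effects, given further on, and was not called.

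Mbd4 (chr6:115840697-115853371, minus strand) had 13.4, 9.48 and 8.20 CPM in young ISC and, in aged ISC, 8.05, 5.02 and 13.0. In AE it was at 1.06, 2.56 and 1.03 CPM in young and 1.05, 0.807 and 0.436 in aged libraries. The populations did not overlap, and young AE replicate 2 was the highest AE library here too. Mbd4 was 7.18-fold lower in young AE (log2 fold change -2.84 ± 0.42, adjusted p = 7.69e-04) and 11.7-fold lower in aged AE (-3.55 ± 0.47, adjusted p = 7.76e-05). In all, 8 members in young mice and 7 in aged mice had groups that did not overlap, beside 62.9% and 69.8% of all genes tested.

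**Figure D3:**
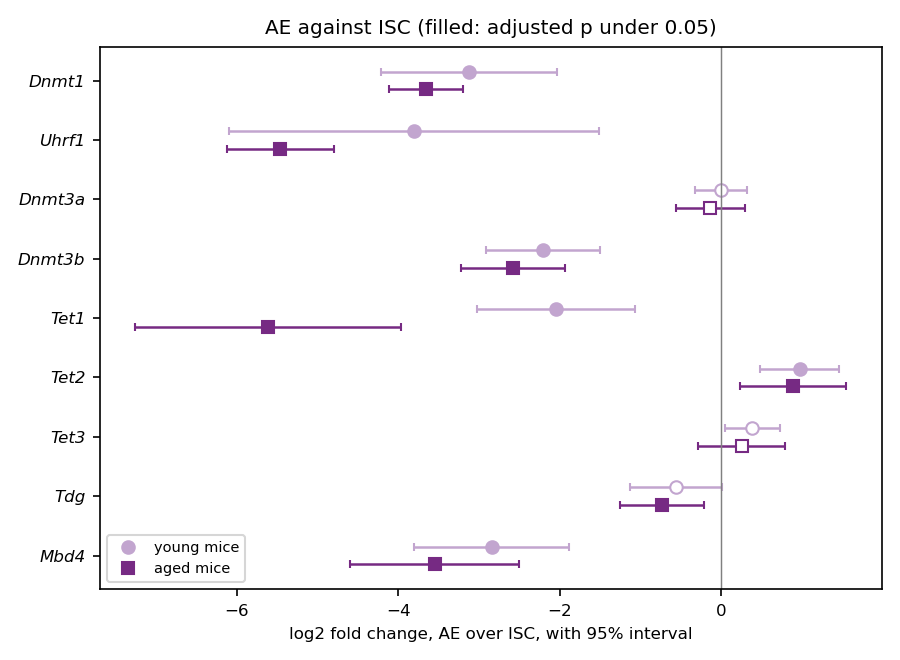
Log2 fold change of AE over ISC for the 9 members with 95% intervals, circles for young and squares for aged mice, filled where the adjusted p is under 0.05. The 5 members lower at both ages lie between -2.05 and -5.61, Dnmt3a lies at -0.01 and -0.14, and Tet2 lies at 0.97 and 0.89.

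Levels between members were compared per length, as CPM divided by the kilobases of merged exon (RPKM). In young ISC Dnmt1 stood at 29.8 ± 4.45 and Uhrf1 at 25.7 ± 4.83 RPKM (SD, n = 3), ranges that overlapped. They were followed by Tet3 at 4.36 ± 0.49, Dnmt3a at 3.14 ± 0.275, Tdg at 2.12 ± 0.455, Mbd4 at 1.97 ± 0.518, Dnmt3b between 1.22 and 1.72, Tet2 at 0.711 ± 0.084 and Tet1 at 0.173 ± 0.0331. Among these neighbours, Dnmt1 and Uhrf1, Tdg and Mbd4, and Mbd4 and Dnmt3b overlapped. The order of the group means in aged ISC was the same, from Dnmt1 at 25.1 ± 4.82 to Tet1 at 0.219 ± 0.0982 RPKM. In AE, Tet3 stood first, at 5.68 ± 0.394 RPKM in young and 6.10 ± 0.967 in aged libraries. In aged AE it was followed by Dnmt3a at 2.94 ± 0.576, Dnmt1 at 2.09 ± 0.289, Tet2 at 1.59 ± 0.373 and Tdg at 1.43 ± 0.362 RPKM. Uhrf1, next to Dnmt1 in ISC, stood at 0.513 ± 0.216 RPKM in aged AE, below Tet2 and Tdg. The order in young AE was Tet3, Dnmt1 (3.45 ± 2.24), Dnmt3a (3.13 ± 0.0917) and Uhrf1 (1.93 ± 2.20), with Dnmt1 spanning 1.69 to 5.97 RPKM and overlapping both Tet3 and Dnmt3a.

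With age, no member was called in either cell population, by edgeR or by DESeq2. In ISC 0% of the 15552 genes tested passed the threshold in edgeR (59 genes in DESeq2), and 784 had an unadjusted p under 0.05, none of them a member. The 9 log2 fold changes of aged over young ISC lay between -0.24 (Dnmt1, 95% interval -0.65 to 0.17) and 0.33 (Tet1, -0.51 to 1.16), all with an adjusted p of 0.9998. The aged and young libraries overlapped for all 9, beside 8.86% of all genes without overlap. Uhrf1 had an interval of -0.70 to 0.23, Dnmt3a of -0.40 to 0.35 and Dnmt3b of -0.54 to 0.45. The estimates of the 3 Tet genes (0.33, 0.21 and 0.17) rested on aged ISC replicate 3, the highest ISC library for each, and without it they were -0.09, -0.22 and -0.17. No marker gene of T cells or enterocytes was called for age in ISC. Of the 10 T cell genes, 9 had lower estimates in aged ISC (median log2 fold change -3.17) and 5 had an unadjusted p under 0.05, with sums of 9.31 to 22.6 CPM in young and 3.07 to 4.97 in aged libraries. Of the 20 enterocyte genes, 19 had lower estimates (median -0.73), with sums of 5124 to 11682 CPM in young and 2456 to 6809 in aged ISC. Their part in the members' values was not tested.

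In AE 0% of the 16265 genes tested were called between ages in edgeR (17 genes in DESeq2), and 779 had an unadjusted p under 0.05. Tet1 was the only member among these, with 12, 9 and 39 counts in young and 1, 0 and 1 in aged libraries. Its log2 fold change was -3.14 ± 0.97 (unadjusted p = 0.00753, adjusted p = 0.844). It was also the only member whose age groups did not overlap, beside 10.9% of all genes tested. The pooled Tet1 level was 8.57-fold higher in young AE, with an exact 95% interval of 2.27 to 72.4, and 13.3-fold (3.26 to 117) when young AE replicate 3, the deepest library, was left out. Both intervals cover counting error only. The aged AE libraries, at 0 or 1 counts, lay below the limit of 3 counts, which was 0.269 to 0.327 CPM there, while the young AE libraries lay above theirs of 0.0359 to 0.248 CPM.

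The estimates for the maintenance pair in AE were lower in aged mice but were not called, at -0.69 ± 0.44 for Dnmt1 and -1.79 ± 1.05 for Uhrf1 (adjusted p = 0.844 for both). Without young AE replicate 2, the library high in proliferation genes, they were -0.02 and -0.15. Mbd4 was at -0.84 ± 0.60, and at -0.40 without that library. The other 5 members lay between -0.32 (Dnmt3b) and 0.21 (Tet2), with Dnmt3a at -0.07 and an interval of -0.46 to 0.31.

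**Figure D4:**
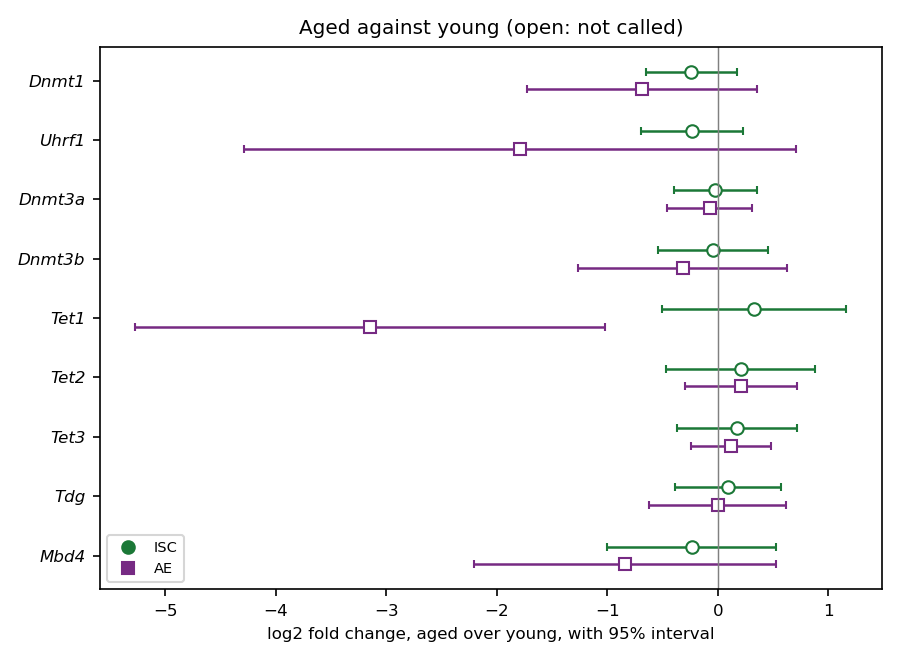
Log2 fold change of aged over young for the 9 members with 95% intervals, circles for ISC and squares for AE; all points are open because no adjusted p was under 0.05. The ISC values lie between -0.24 and 0.33, and the widest intervals are those of Uhrf1 and Tet1 in AE.

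The difference of age effects (aged over young in AE, less the same in ISC) was called for no member and for 0.00575% of the 17377 genes tested. It was lowest for Tet1, at -3.49 ± 1.06 (unadjusted p = 0.00475, adjusted p = 0.99995), and lay between -1.56 (Uhrf1) and -0.01 (Tet2) for the others. For Dnmt1 and Uhrf1 it was -0.46 and -1.56, and without young AE replicate 2 it was 0.18 and 0.05.

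The other genes of the pathway were counted in fixed lists, none of which was tested as a set. Of all genes tested, 26.7% were called lower and 28.9% higher in young AE, and 34.2% and 30.6% in aged AE. Each count below is to be read beside these shares. Of the cofactors and partners of the methyltransferases, 7 of the 10 tested were lower and 1 was higher in young AE than in young ISC, and 8 of 9 were lower and 1 higher in aged mice. Pcna, the sliding clamp, is in this list and also among the proliferation genes, and Cdca7 is also among the 13 crypt base stem cell genes, whose other 12 summed to 5903 to 8483 CPM in ISC and 137 to 675 in AE. Cdca7, which recruits the remodeller Hells to chromatin, fell from 305 ± 51 to 18.2 ± 14 CPM in young mice (SD, n = 3, log2 fold change -4.09 ± 0.55) and by 5.13 on the log2 scale in aged mice. Young AE replicate 2 had 34.3 CPM of Cdca7 and the others 10.2 and 9.89, and without it the young value was -5.02. Its relative Cdca7l changed by -3.36 and -4.52. At the other end, Usp7, a deubiquitinase that binds Dnmt1 and Uhrf1, was lower by a small amount (-0.40 and -0.43, adjusted p = 0.0445 and 0.0311), and the young call was lost without young AE replicate 3 (-0.49, adjusted p = 0.0796). Zbtb24, a zinc finger protein needed for Cdca7 expression, was higher in AE at 1.17 ± 0.19 and 1.13 ± 0.17.

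Of the 7 genes listed as methyl-CpG readers or their relatives, 4 were lower and 1 was higher in young AE, and 5 and 1 in aged AE. Zbtb38 (-1.94 and -2.19) and Mbd3 (-1.62 and -1.82), a subunit of the NuRD complex, were the lowest. Zbtb4 was higher, at 0.90 and 0.88.

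Of 16 genes tested for the supply of the methyl donor S-adenosylmethionine and one-carbon metabolism, 9 were lower at both ages, and 3 were higher in young and 2 in aged AE. Shmt1, a serine hydroxymethyltransferase, was at 209 ± 15 CPM in young ISC and 18.1 ± 18 in young AE (-3.56 ± 0.75), and at -4.83 in aged mice. Without young AE replicate 2, which had 38.6 CPM of Shmt1, the young value was -4.88. Mat1a and Bhmt, the extremes of this list by the rule, both stayed under 1 CPM in every group mean. Mat1a had a mean of 0.882 CPM in aged ISC and 0 counts in aged AE, and Bhmt had 0 counts in aged ISC and 0.316 CPM in aged AE. Ahcyl2, related to the hydrolase that removes S-adenosylhomocysteine, was higher in AE, at 1.48 ± 0.17 and 1.52 ± 0.17. Without young AE replicate 3, 1 gene was higher in young AE, and Mat1a was no longer called (adjusted p = 0.0710).

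Of the 14 genes listed for base excision repair after Tdg, 7 were lower and 3 higher in young AE, and 8 and 3 in aged AE. Ung, the uracil glycosylase, changed by -4.15 ± 0.71 and -5.21 ± 0.30, and Neil3, a glycosylase of dividing cells, by -3.38 ± 0.66 and -4.75 ± 0.25. Young AE replicate 2 was the highest AE library of young mice for both, at 6.54 and 6.04 CPM, and without it the young values were -5.38 for Ung and -4.56 for Neil3. The genes called higher were the 3 Gadd45 genes, which are on this list and encode stress-induced proteins linked to demethylation. None of the glycosylases and other repair enzymes on the list was called higher in AE. Gadd45a changed by 1.28 and 1.39 and Gadd45b by 2.13 and 2.17.

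Of 11 genes tested for TET cofactors and the supply of alpha-ketoglutarate, 3 were lower and 2 higher in young AE and 4 and 2 in aged AE. Among all genes tested, 55.6% were called in young and 64.9% in aged mice. Idh2, the mitochondrial NADP-dependent isocitrate dehydrogenase, changed by -1.67 ± 0.25 and -2.12 ± 0.23, and Idh3b by -0.49 and -0.80. The young call of Idh3b was lost without young AE replicate 3 (-0.52, adjusted p = 0.0936). The cytosolic Idh1 was higher, at 2.22 ± 0.56 and 2.57 ± 0.37. Without young AE replicate 3, 1 gene of this list was lower and 1 higher in young mice.

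Of the 3 cytidine deaminases tested, 1 was higher and 1 lower in AE at both ages. Apobec1, which edits apolipoprotein B mRNA in enterocytes, was at 8.06 ± 2.9 CPM in young ISC and 69.3 ± 1.8 in young AE (3.10 ± 0.26), and differed by 3.20 ± 0.24 in aged mice. Apobec3 was lower, at -2.34 ± 0.41 and -3.47 ± 0.19, and Apobec2, under 0.25 CPM in every group, was not called. By edgeR, none of the genes in the 6 lists was called for age in either population or for the difference of age effects. Of all genes tested, 0% were called for age in ISC, 0% for age in AE and 0.00575% for the difference. DESeq2 calls were not counted for these lists. All 18 proliferation genes were called lower in AE at both ages, and their part in these counts was not tested.

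**Figure D5:**
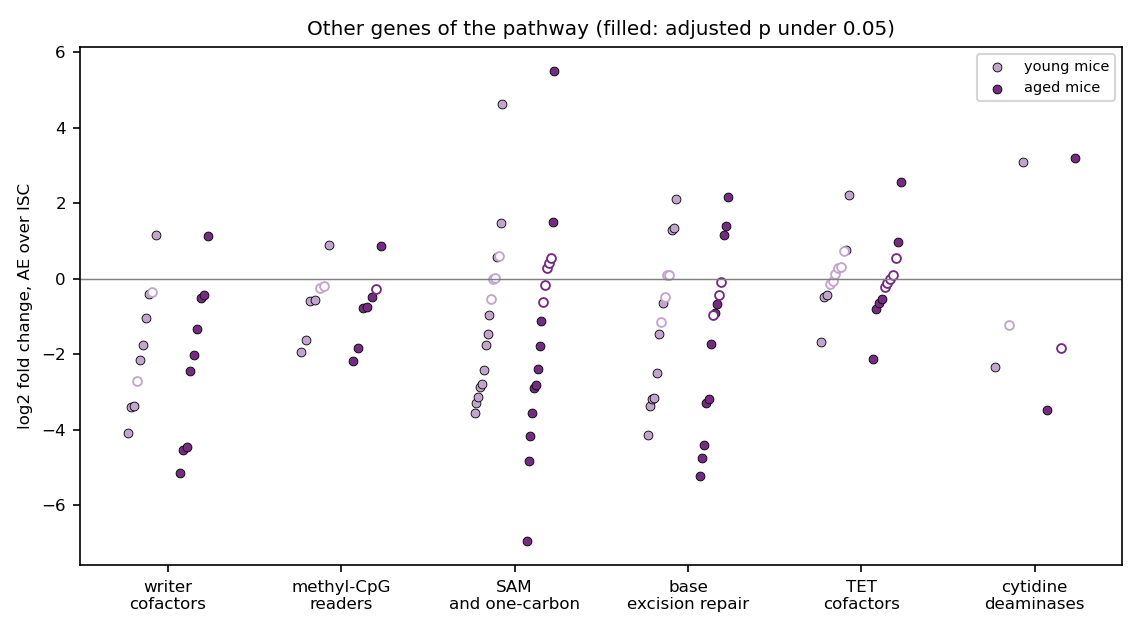
Log2 fold change of AE over ISC (vertical axis) for every tested gene of the 6 lists (horizontal axis), lighter points for young and darker points for aged mice, filled where the adjusted p is under 0.05. The extreme aged points are Mat1a and Bhmt, both under 1 CPM with 0 counts in all 3 libraries of a group, so that their fitted values are no measured fold, and the 3 Gadd45 genes lie above 0 at both ages.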

How the data were processed

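The authors deposited raw counts per gene, made per the labels with Trim Galore 0.4.4 and HISAT2 2.1.0 on GRCm38 and counted over merged exons. The annotation release is not given in the sources used here. Their table of differential genes was not used. The members and lists were chosen with earlier results of these data known.

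Genes with at least 10 counts in total were tested with edgeR 4.0.16 (TMM scaling, robust quasi-likelihood with bias-adjusted deviances, Benjamini-Hochberg over all genes tested, threshold 0.05), with the libraries of the groups compared. CPM used TMM over 12 libraries. RPKM used merged exon lengths of GENCODE M21, whose gene bounds matched the table for all 9 members. The scripts were tested on simulated data.

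All 9 members were named. Of each list the 2 lowest and 2 highest by mean AE over ISC log2 fold change were named, and lists of at most 5 genes in full; some genes this rule names are not reported here. Muc2, split over several rows, was left out of the goblet list.

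Young and aged libraries share codes between ISC and AE. Same-code deviations from the group mean correlated in 6 of 6 pairs (r = 0.213 to 0.431, different codes -0.376 to 0.110). Positive same-code values lower the different-code ones, because deviations within a group sum to 0. The codes were taken to pair the libraries, but the main fits left this pairing out. The replicate block, which holds the pairing, was an alternative and was not read for the pathway lists. Alternatives were DESeq2, other scalings and filters, the replicate block, all 12 libraries in 1 fit, and each library left out.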

Additional observations from a re-analysis of the deposited data

How the results depend on the processing

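The number of members called stayed at 0 for age in ISC, age in AE and the difference of age effects under every alternative run, and was 6 or 7 for AE against ISC in young mice and 6 to 8 in aged mice. With the replicate block it was 6, 7 and 0 (young, aged, and difference of age effects), and the block changed no member's call. Over all genes it moved the calls for the difference of age effects from 1 to 19, and DESeq2 gave 43 there, 59 for age in ISC and 17 for age in AE. Upper-quartile scaling moved the median log2 fold change of all genes in young AE against ISC from 0.15 to 0.03, and Tdg was then called (-0.68, adjusted p = 0.0410). Tet3 was called there with edgeR's own expression filter (adjusted p = 0.0327).

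Estimates near 0 changed sign, none of them called. Tdg for age in AE was 0.012 with DESeq2, 0.0070 with RLE scaling and 0.0061 with plain quasi-likelihood settings. Dnmt3a in young AE against ISC was 0.024 with the expression filter and 0.039 with the deepest library thinned. Tet2 in the difference of age effects was 0.045 with DESeq2, 0.041 with RLE scaling, 0.0023 with the expression filter and 0.063 with the replicate block. Thinning, the plain settings and the pathway values without a young AE library were chosen after seeing the data.

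Leaving out 1 library at a time, age in ISC ranged from -0.15 to 0.11 for Dnmt3a, -0.14 to 0.12 for Dnmt3b, -0.63 to 0.023 for Mbd4, -0.093 to 0.58 for Tet1, -0.22 to 0.38 for Tet2 and -0.17 to 0.33 for Tet3. Age in AE ranged from -0.16 to 0.18 for Tdg and -0.22 to 0.058 for Dnmt3a. Dnmt3a in AE against ISC ranged from -0.088 to 0.052 in young and -0.28 to 0.00031 in aged mice. The difference of age effects ranged from -0.26 to 0.43 for Tet2, -0.22 to 0.29 for Tet3, -0.25 to 0.072 for Dnmt3a, -0.85 to 0.18 for Dnmt1, -2.22 to 0.050 for Uhrf1 and -0.33 to 0.0052 for Tdg. Tet1 between ages in AE could not be fitted with the expression filter, which removed it. The causes were not tested. Depth limits Tet1 and Mbd4 in AE most, where libraries held 0 to 39 and 4 to 86 counts.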

Other observations

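Over the 12 libraries, the genes whose log2 CPM followed a member most closely, among 12642 genes with a mean of at least 1 CPM, are given as a description. The libraries fall into the ISC and AE populations, so these correlations mostly carry that difference. For Dnmt1 they were Sema4d, Tmpo and Tfdp1, the dimer partner of E2F factors (Pearson r = 0.998 for Tfdp1). For Uhrf1 they were Nt5c3b, Smc2, a condensin subunit, and Ccnf, a cyclin (r = 0.996 for each). For Dnmt3b they were Nr2e3, Ibtk and Fam206a (r = 0.991 to 0.992), and for Mbd4 Prpf4, Chek2, a DNA damage kinase, and Gstcd (r = 0.988 to 0.992). Tet2 was followed by Nfat5, Exph5 and Synj1 (r = 0.974 to 0.978), and Tet3 by Smg1, Ago3 and Map3k1 (r = 0.952 to 0.955). Tet1 was followed by 1700012D14Rik, Gemin8 and Kbtbd3 (r = 0.967 to 0.979). The likeness was looser for Tdg (Cage1, Dffb and Mzt1, r = 0.917 to 0.930) and Dnmt3a (Gm43759, Gm42979 and Brd1, r = 0.892 to 0.905).

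Among the members themselves, Dnmt1 and Uhrf1 had r = 0.990 over the 12 libraries, Dnmt1 and Dnmt3b 0.982, and Dnmt1 and Mbd4 0.979. Tet2 and Tet3 had r = 0.902, and Dnmt1 and Tet2 had r = -0.850. Dnmt3a had r of 0.091 to 0.140 with Uhrf1, Dnmt3b and Dnmt1.

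Genes whose exons overlap a member on the other strand had few counts. Dnmt3aos (133 shared exon bases with Dnmt3a) and Gm42567 (43 with Tet2) had 0 counts in all 12 libraries, Glt8d2 (367 with Tdg) had 3 counts in 1 library, and Gm44206 (264 with Mbd4) had 2 in all. The libraries were made with a strand-specific kit, and the strand setting of the counting is not given in the sources used here. Dnmt3bos, an antisense gene at Dnmt3b, had 0 to 11 counts a library.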
